A study of Macaca mulatta with 24 samples.

Results

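The genes described here are 8 potassium channel genes whose channels are gated by intracellular calcium or sodium, namely KCNN1, KCNN2, KCNN3, KCNMA1, KCNMB2, KCNMB4, KCNT1 and KCNT2. They were taken by symbol from the 17208 genes of the expression table, where all 8 were found, and all 8 passed the filter on low values. The tissue was the core of the nucleus accumbens (NAcc), a ventral striatal region involved in reward, from 24 unrelated adult male rhesus macaques, each measured once by RNA-Seq. The 8 LD* animals (low and binge drinkers combined, which the labels do not tell apart) and the 4 HD and 4 VHD animals (heavy and very heavy drinkers) had open access to 4% (w/v) ethanol beside water for 22 h per day over 12 months, and HD* denotes the HD and VHD animals together. The 8 controls went through the same procedures with water at both spouts and received a 10% maltose dextrin solution for matched calories.

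LD* animals drank 1.58 ± 0.53 g/kg of ethanol per day (mean ± SD, n = 8), against 3.14 ± 0.33 g/kg for the 8 HD* animals. Within HD*, intake ran from 2.74 to 3.09 g/kg in HD and from 3.09 to 3.78 g/kg in VHD animals. The categories therefore met at 3.09 g/kg. Tissue was collected at the end of drinking, with no period of abstinence imposed. Controls and HD* animals occurred together only in cohorts 5 and 7a. LD* and HD* animals did so only in cohort 7a, and cohort 4 held LD* animals alone.

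Small-conductance channels (SK, the KCNN genes) are opened by calcium through bound calmodulin and shape the afterhyperpolarization that follows action potentials. The large-conductance channel (BK) has a pore subunit encoded by KCNMA1, which responds to both voltage and calcium and is a direct target of ethanol, and its beta subunits, among them those of KCNMB2 and KCNMB4, set its gating and drug sensitivity. The sodium-activated channels of KCNT1 and KCNT2 (Slack and Slick) carry a potassium current that follows sodium entry.

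The values were TPM, a unit in which transcripts are scaled for gene length and to a fixed total in each animal. Read depth cannot be recovered from it, and no counting error can be given. Markers of striatal projection neurons, the main cell type of the NAcc, were present in every animal (10 of 10 genes), but their summed level ran from 768 TPM in control replicate 6 to 11996 TPM in control replicate 3. Summed markers of cortical excitatory neurons ran from 1.42 TPM in HD replicate 3 to 872 TPM in LD replicate 4. These marker levels differed between animals of the same group as well as between groups. Fewer cells of a type and less RNA per cell cannot be told apart in tissue RNA. Control replicate 6 was also the least similar to the others, with a median correlation of 0.924 to the other animals against 0.951 to 0.984 for the rest. No animal was left out of the values below unless stated.

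Mean levels of the 8 transcripts, compared per gene length, ran from 1.09 to 59.6 TPM. KCNN1, an SK channel gene, and KCNMB4, the neuronal BK beta subunit, were highest, at 59.6 ± 19.2 and 47.7 ± 8.25 TPM over all animals (mean ± SD, n = 24). KCNT1 followed at 19.8 ± 5.49 TPM and KCNMA1 at 17.5 ± 5.93 TPM. KCNN3 and KCNN2, the other SK genes, came next at 8.50 ± 2.93 and 7.20 ± 1.94 TPM. KCNMB2, the BK beta subunit that gives rapid inactivation, stood at 3.98 ± 2.11 TPM and KCNT2 at 1.09 ± 0.71 TPM, which is close to the lowest level tested.

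The order held in every animal at 3 of its 7 steps and in all but 1 animal at a further step. KCNMB4 exceeded KCNT1, KCNMA1 exceeded KCNN3 and KCNMB2 exceeded KCNT2 in 24 of 24 animals, and KCNN2 exceeded KCNMB2 in 23 of 24. The other neighbours exchanged places. KCNN1 was above KCNMB4 in 16 of 24 animals, KCNT1 above KCNMA1 in 17 of 24 and KCNN3 above KCNN2 in 16 of 24. Among the BK subunits, KCNMB4 was thus far above KCNMB2, with the log2 ratio of their TPM averaging 3.55 in controls.

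The genes also differed in how much they varied between animals. KCNMB4 was the steadiest, with an SD of 0.21 on the log2(TPM + 1) scale, at percentile 21.2 among genes of similar level. KCNMA1 was the most variable, with an SD of 0.55 at percentile 90.9, and KCNN1 (SD 0.45, percentile 84.1) and KCNN3 (SD 0.49, percentile 81.2) were also on the variable side. KCNN2 was near the middle at percentile 52.7.

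**Figure D1:**
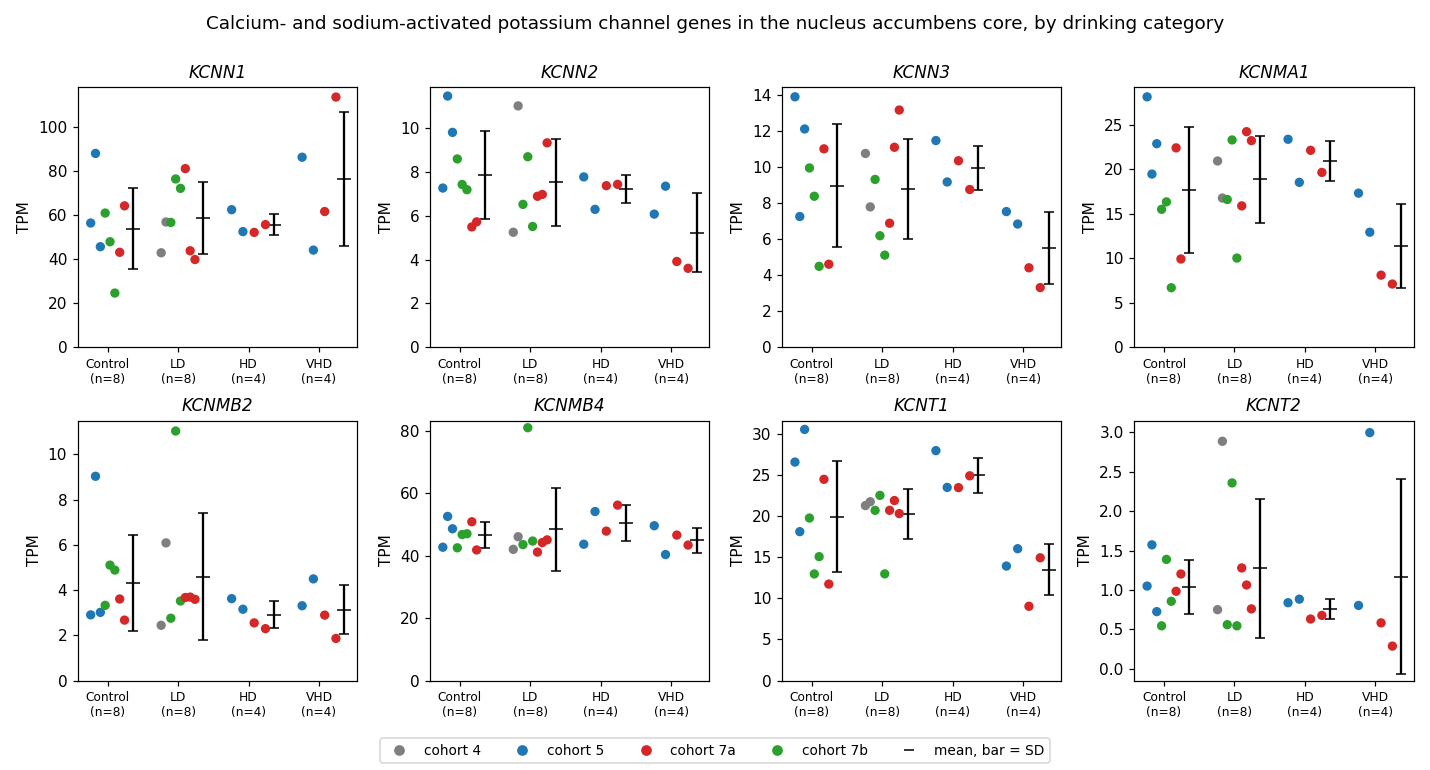
TPM of each of the 8 channel genes (vertical axes from 0, except KCNT2, whose axis starts just below 0) in controls, LD, HD and VHD animals, 1 point per animal, coloured by cohort, with mean and SD as bars. The 4 HD animals lie close together for KCNT1 (23.4 to 27.9 TPM), above all 4 VHD animals (9.03 to 16.02 TPM), while controls span both (11.7 to 30.5 TPM).

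No channel gene passed the test in any comparison of the intake arms. The comparisons ask whether a year of drinking at a low or a high level went with a different level of these transcripts. Log2 fold changes are differences in mean log2(TPM + 1), taken from a linear model of all 3 arms over the 13637 genes that averaged 1 TPM or more (limma, with Benjamini-Hochberg adjustment over all of these genes). In HD* against controls, 0 of 8 genes passed an adjusted p of 0.05 (0% of all genes did) and 0 of 8 had an unadjusted p under 0.05 (5.68% of all genes did). In LD* against controls these counts were 0 and 0 of 8 (0% and 2.84% of all genes), and in HD* against LD* 0 and 0 of 8 (0% and 1.08%). The smallest adjusted p among the 8 genes was 0.706, 1.00 and 0.937 in the 3 comparisons in that order. Leaving out any 1 animal, control replicate 6 included, left all 3 counts at 0. The paper's own test, a count model (DESeq2) of these animals, did call genes in HD* against controls, with KCNT1 among those downregulated. The model used here did not recover that call, and the reason was not tested.

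Among the SK genes, KCNN1 ran from 24.6 to 88.1 TPM in controls (median 52.2), from 39.9 to 81.2 TPM in LD* (median 56.8) and from 44.2 to 114 TPM in HD* animals (median 58.7). KCNN2 lay between 5.49 and 11.5 TPM in controls (median 7.34), between 5.24 and 11.0 TPM in LD* (median 6.93) and between 3.60 and 7.77 TPM in HD* animals (median 6.82). KCNN3 covered 4.50 to 13.9 TPM in controls (median 9.17), 5.12 to 13.2 TPM in LD* (median 8.56) and 3.31 to 11.5 TPM in HD* animals (median 8.15). The arms overlapped for all 3 genes, and the lowest KCNN2 and KCNN3 values of all animals, as well as the highest KCNN1 value, belonged to VHD replicate 4. Its scaling factor by the trimmed mean of M-values was the smallest (0.69, against 0.84 to 1.13 in the rest). It also had the fewest genes above 0 TPM (15697). The extremes above are in TPM, before such rescaling. The log2 fold change in HD* against controls was 0.31 (SE 0.22) for KCNN1 and -0.30 (SE 0.17) for KCNN2, the latter with the smallest unadjusted p of the 8 genes (0.0846). For KCNN3 it was -0.19 (SE 0.24).

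For the BK channel, KCNMA1 ran from 6.68 to 28.1 TPM in controls (median 17.9), from 10.0 to 24.2 TPM in LD* (median 18.8) and from 7.10 to 23.3 TPM in HD* animals (median 17.9). KCNMB4 lay between 41.9 and 52.6 TPM in controls (median 47.0), between 41.2 and 81.1 TPM in LD* (median 44.5) and between 40.4 and 56.3 TPM in HD* animals (median 47.3). KCNMB2 covered 2.67 to 9.03 TPM in controls (median 3.46), 2.44 to 11.0 TPM in LD* (median 3.63) and 1.86 to 4.49 TPM in HD* animals (median 3.02). The arms overlapped throughout, and the high ends of KCNMB4 and KCNMB2 in LD* were the same animal, LD replicate 4. In HD* against controls the log2 fold change was -0.11 (SE 0.26) for KCNMA1, 0.03 (SE 0.11) for KCNMB4 and -0.35 (SE 0.22) for KCNMB2. The 95% confidence interval for KCNMB4, from -0.20 to 0.26, was the narrowest of the 8, whereas that of KCNMA1 reached from -0.65 to 0.43. The sign for KCNMA1 and KCNT1 turned under another scaling of the columns and with neuron markers in the model.

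Of the sodium-activated channels, KCNT1 ran from 11.7 to 30.5 TPM in controls (median 18.9), from 13.0 to 22.5 TPM in LD* (median 21.0) and from 9.03 to 27.9 TPM in HD* animals (median 19.7). KCNT2 lay between 0.54 and 1.57 TPM in controls (median 1.02), between 0.54 and 2.89 TPM in LD* (median 0.91) and between 0.29 and 3.00 TPM in HD* animals (median 0.74). Both genes overlapped across the arms, and 7 of the 8 LD* animals sat within 20.3 to 22.5 TPM for KCNT1. The log2 fold change in HD* against controls was -0.06 (SE 0.21) for KCNT1 and -0.12 (SE 0.21) for KCNT2. Within cohort 7a KCNT2 ran from 0.29 to 0.68 TPM in the 4 HD* and from 0.76 to 1.28 TPM in the 3 LD* animals, a difference of -0.40 on the log2 scale (exact permutation p = 0.0286, the smallest possible and not adjusted). Of these 7 values, 5 are below the 1 TPM that a gene had to average to be tested. That permutation p was the smallest of the 8 genes over all comparisons made within cohorts, so it was picked from many. The share of all genes separated likewise was not computed.

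The 8 genes were also set beside the general shift of the table. In HD* against controls 6 were lower and 2 higher, with a median log2 fold change of -0.12, and the median over all 13637 genes was also -0.12, with 77.8% of them lower (the latter median moved to -0.0067 under the trimmed mean of M-values). In LD* against controls 7 of the 8 were higher and 1 lower, with a median of 0.06, while 58.1% of all genes were lower, with a median of -0.03. In HD* against LD* 6 were lower and 2 higher, with a median of -0.20, against -0.08 over all genes (73.3% lower). These comparisons share animals, so they are not independent. Within cohorts, 7 of the 8 genes were lower in HD* animals than in controls in cohort 5 and 6 of 8 in cohort 7a, of which 5 were lower in both. The share of all genes lower within a single cohort was not computed. The smallest exact permutation p (two-sided) was 0.114 in cohort 5 (3 controls and 4 HD* animals) and 0.0667 in cohort 7a (2 and 4). A test of whether the HD* difference itself changed between these cohorts passed for 0 of 8 genes (adjusted p from limma, 0% of all genes, and 0 of 8 at an unadjusted p under 0.05 against 2.16% of all genes).

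Cohort as such was tested with arm in the model, and 0 of 8 genes passed by limma's adjusted p (0% of all genes did). At an unadjusted p under 0.05 the count was also 0 of 8, against 8.36% of all genes. KCNMA1 came nearest (F = 2.68, adjusted p = 0.540). Its mean was 20.4 ± 4.90 TPM in cohort 5 (n = 7), 16.9 ± 6.90 TPM in cohort 7a (n = 9) and 14.7 ± 5.77 TPM in cohort 7b (n = 6), and the 2 animals of cohort 4 were at 16.7 and 20.9 TPM.

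Intake was also used as a number in the 16 drinkers. By limma, 0 of 8 genes had a slope past the adjusted threshold (0% of all genes) and 0 of 8 an unadjusted p under 0.05 (6.65% of all genes). The slope was -0.19 log2 units per g/kg for KCNN2 (SE 0.09, unadjusted p = 0.0592) and -0.19 for KCNMA1 (SE 0.13). KCNN1 and KCNMB4 had positive slopes, of 0.15 (SE 0.11) and 0.01 (SE 0.07), and the remaining 6 genes negative ones. With cohort as a covariate the slopes of KCNN2, KCNN3, KCNMA1 and KCNT1 became steeper (-0.48, -0.58, -0.59 and -0.43) with unadjusted p from 0.0083 to 0.0357. In that fit 29.4% of all genes had an unadjusted p under 0.05. None of KCNN2, KCNN3, KCNMA1 and KCNT1 passed after adjustment over all genes (limma, 0.134 to 0.151), and the median slope of all genes in that fit was -0.18. Only cohort 7a held both LD* and HD* animals, so intake and cohort overlapped among the drinkers.

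Ratios between subunits do not depend on how a library is scaled, and 4 of them were compared between the arms, with 12 exact permutation tests in all (two-sided). The log2 ratio of KCNMB4 to KCNMB2, the BK beta subunits, averaged 4.02 ± 0.48 for HD*, 3.54 ± 0.44 for LD* and 3.55 ± 0.51 for control animals (SD, 8 animals each). HD* exceeded LD* by 0.49 (exact p = 0.0538, 0.446 after adjustment over the 12 tests) and controls by 0.48 (exact p = 0.0743, adjusted 0.446), so neither difference passed. The ratios of KCNMB4 to KCNMA1, KCNN2 to KCNN3 and KCNT2 to KCNT1 had exact permutation p from 0.283 to 0.963.

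**Figure D2:**
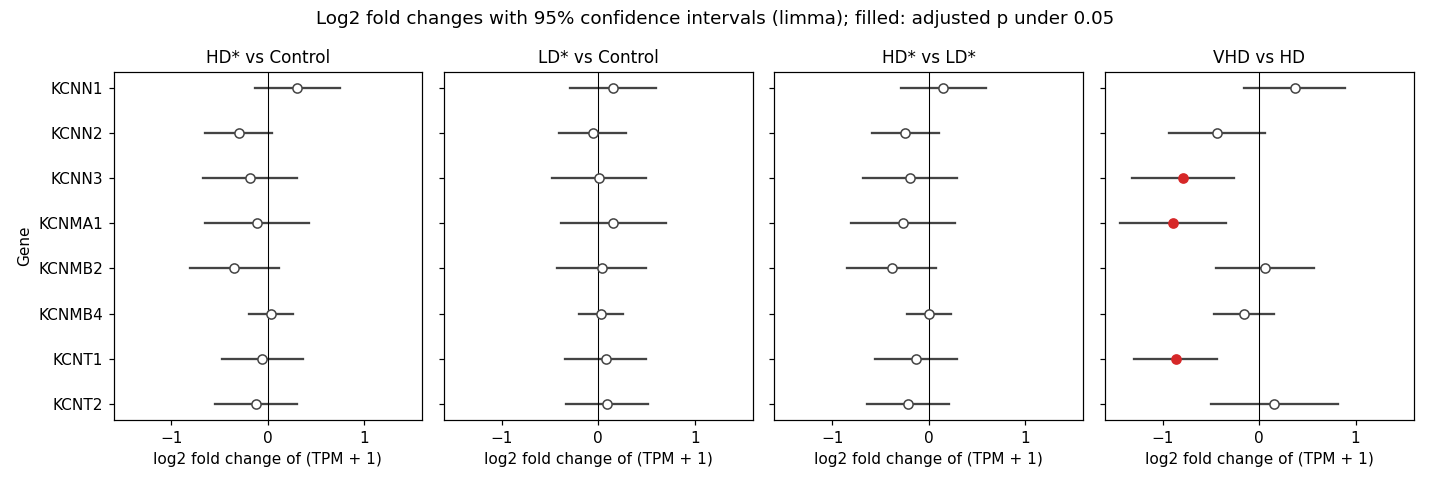
Log2 fold change of (TPM + 1) for each channel gene (points) with its 95% confidence interval (lines) in 4 comparisons, with filled points at an adjusted p under 0.05. All 24 intervals of the comparisons between arms cross 0, and KCNN3, KCNMA1 and KCNT1 lie below 0 in VHD against HD.

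Within the HD* arm, 3 of the 8 genes fell in VHD relative to HD animals. They were KCNT1, KCNMA1 and KCNN3. This comparison asks whether the heavier category differs from the other within the high-drinking arm. It was fitted to the 8 HD* animals alone, and 14.6% of all genes passed an adjusted p of 0.05 by limma, 11.4% being lower in VHD. In this fit none of the 8 passed as higher, and 3 were higher without passing.

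KCNT1 measured 27.9, 23.5, 23.4 and 24.9 TPM in HD replicates 1 to 4 and 13.9, 16.02, 9.03 and 14.9 TPM in VHD replicates 1 to 4. KCNMA1 measured 23.3, 18.5, 22.1 and 19.6 TPM in the HD animals and 17.3, 12.9, 8.09 and 7.10 TPM in the VHD animals. KCNN3 measured 11.5, 9.18, 10.4 and 8.76 TPM in HD and 7.54, 6.84, 4.41 and 3.31 TPM in VHD. For each of the 3 genes every VHD animal was below every HD animal, which was so for 17.9% of all genes tested (5.39% were the other way round). The exact permutation p was 0.0286 for each, the smallest that 4 against 4 animals can give. The log2 fold change was -0.87 for KCNT1 (SE 0.20, adjusted p = 0.0157), -0.90 for KCNMA1 (SE 0.25, adjusted p = 0.0346) and -0.79 for KCNN3 (SE 0.24, adjusted p = 0.0476), all from limma. Both cohorts showed the lower level, with differences of -0.74 in cohort 5 and -0.99 in cohort 7a for KCNT1, -0.45 and -1.35 for KCNMA1, and -0.46 and -1.12 for KCNN3 (2 HD and 2 VHD animals in each cohort, too few for a test to pass).

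The other 5 genes did not pass. KCNN2 measured 7.77, 6.29, 7.37 and 7.43 TPM in HD and 6.07, 7.35, 3.91 and 3.60 TPM in VHD animals, a log2 fold change of -0.44 (SE 0.23, limma adjusted p = 0.204). KCNN1 was at 62.5, 52.6, 52.2 and 55.7 TPM in HD and at 86.4, 44.2, 61.7 and 114 TPM in VHD, a log2 fold change of 0.37 (SE 0.24). For KCNN1 the HD animals were thus tightly grouped and the VHD animals widely spread, on both sides of them. For the BK beta subunits the log2 fold change was -0.16 (SE 0.14) for KCNMB4 and 0.06 (SE 0.23) for KCNMB2. Whether their change differed from that of the pore gene was not tested. KCNT2 differed by 0.16 (SE 0.30), and VHD replicate 2, at 3.00 TPM, held the highest KCNT2 value of all 24 animals. The median over the 8 genes was -0.30, against -0.17 over all genes.

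The 3 calls changed with the animals in the fit. For KCNT1 the SD was 2.11 TPM in HD, 3.09 TPM in VHD and 6.76 TPM in control animals. When all 24 animals were fitted with their 4 categories, a choice made after seeing the data, the differences kept their size but 0 of 8 genes and 0 of 13637 passed (limma adjusted p of 0.0555 for KCNT1, 0.0743 for KCNMA1 and 0.0796 for KCNN3). With any 1 of HD replicates 1 to 4 or VHD replicate 3 left out, 0 of 8 genes passed, with adjusted p from 0.0502 to 0.0580 for KCNT1, from 0.0774 to 0.123 for KCNMA1 and from 0.0885 to 0.149 for KCNN3. Without VHD replicate 4 only KCNT1 passed, and without VHD replicate 2 KCNN1 and KCNN2 passed as well, making 5 of 8. Controls ran from 11.7 to 30.5 TPM for KCNT1, from 6.68 to 28.1 TPM for KCNMA1 and from 4.50 to 13.9 TPM for KCNN3, so that most of both categories lay within the range of the controls.

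Neuronal markers moved in the same direction. The mean log2(TPM + 1) of 6 general neuron markers was 7.66 ± 0.52 in VHD and 8.45 ± 0.10 in HD animals (SD, 4 animals each), without overlap (exact permutation p = 0.0286, the smallest possible), and 3 of the 6 genes fell. Of 10 striatal projection neuron markers, 9 fell, and their summed level ran from 3518 to 6257 TPM in VHD and from 9266 to 10860 TPM in HD animals. Among 6 microglia markers 3 rose, and among 6 astrocyte markers GFAP rose. Of 7 oligodendrocyte markers MBP alone passed, and it rose. Over that list 3 genes were higher and 4 lower, with a median log2 fold change of -0.13. No marker of striatal interneurons (6 genes), cortical excitatory neurons (5 genes), oligodendrocyte precursors (3 genes) or endothelium and mural cells (7 genes) passed. All 5 cortical markers were nonetheless lower in VHD, with a median log2 fold change of -1.36 against -0.17 over all genes. All 3 precursor markers (median -0.36), 5 of 6 interneuron markers (-0.18) and 5 of 7 endothelial and mural markers (-0.20) were lower too. Over all 13637 genes, 1556 passed as lower and 441 as higher. With the neuron marker level as a covariate, the log2 fold change was -0.60 for KCNT1 (limma adjusted p = 0.181), -0.29 for KCNMA1 (0.556) and -0.24 for KCNN3 (0.597), and 0 of 8 genes passed. With the TPM columns rescaled by the trimmed mean of M-values, which brings the median of all genes to 0.01, all 3 genes still passed, at -0.67, -0.71 and -0.62.

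Across all animals the channel genes did not vary as 1 group. Of the 28 pairs, 10 had an adjusted p under 0.05 for Pearson's r of log2(TPM + 1) and 4 for both r and Spearman's rho (100000 permutations, adjusted over 28 pairs). KCNN3, KCNMA1 and KCNT1, the genes that fell in VHD animals, made up 3 of the 4, and those 8 animals are part of the 24. For KCNN3 and KCNMA1 r was 0.90 and rho 0.82, with r of 0.84 without the 2 animals farthest from the median and of 0.90, 0.98 and 0.64 within cohorts 5, 7a and 7b. For KCNMA1 and KCNT1 r was 0.79 and rho 0.79, and within those cohorts r was 0.77, 0.86 and 0.61. For KCNN3 and KCNT1 r was 0.76 and rho 0.72, but only 0.40 in cohort 7b against 0.89 and 0.79 in the others.

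KCNMB2 and KCNT2, the scarcest of the 8, formed the other pair (r = 0.73, rho = 0.72, and r of 0.51, 0.73 and 0.96 within cohorts 5, 7a and 7b). Between KCNMA1 and its beta subunit genes r was 0.27 for KCNMB4 and 0.16 for KCNMB2, and neither passed (adjusted p of 0.475 and 0.682, permutation test). The beta subunit genes themselves had an r of 0.56 that fell to -0.07 without the 2 animals farthest from the median of KCNMB2, so that relation rests on those animals. KCNN1 had a negative r with KCNN2, KCNN3, KCNMA1, KCNT1 and KCNT2, the strongest being -0.37 with KCNN3, which did not pass (adjusted p = 0.200, permutation test).

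**Figure D3:**
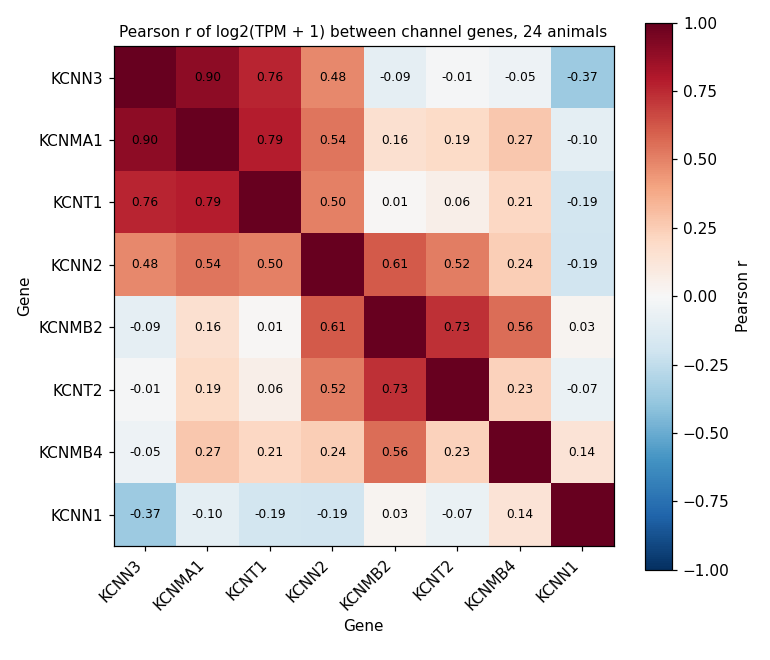
Pearson r of log2(TPM + 1) between the 8 channel genes over 24 animals, from blue (negative) to red (positive), with the value in each cell. KCNN3, KCNMA1 and KCNT1 form a block with r from 0.76 to 0.90, KCNMB2 and KCNT2 a pair at 0.73, and KCNN1 is at or below 0.14 with every other gene.

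The same genes were compared with the neuron and oligodendrocyte marker levels (16 relations, permutation p adjusted over the 16). KCNT1 rose most closely with the neuron markers (r = 0.80, rho = 0.84, adjusted p = 0.000160 for both), and r was 0.82, 0.89 and 0.62 within cohorts 5, 7a and 7b. KCNMA1 (r = 0.73, rho = 0.66), KCNN3 (r = 0.70, rho = 0.52) and KCNN2 (r = 0.66, rho = 0.52) also passed for both measures. Without the 2 animals farthest from the median marker level r was 0.78 for KCNT1, 0.56 for KCNMA1, 0.51 for KCNN3 and 0.38 for KCNN2. Within cohorts these were uneven, at 0.44, 0.95 and 0.36 for KCNMA1, at 0.72, 0.90 and 0.10 for KCNN3, and at 0.03, 0.83 and 0.83 for KCNN2. KCNN1 went the other way (r = -0.51, adjusted p = 0.0368 by permutation, rho = -0.41, adjusted p = 0.146) and its r was negative in all 3 of these cohorts, and it was -0.38 without the same 2 animals. KCNMB4, KCNMB2 and KCNT2 did not pass, and neither did any of the 8 relations with oligodendrocyte markers. In the 8 HD* animals, neuron marker level split by category without overlap, so the covariate fit cannot tell them apart. The part of cell makeup in the VHD difference was not tested.

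**Figure D4:**
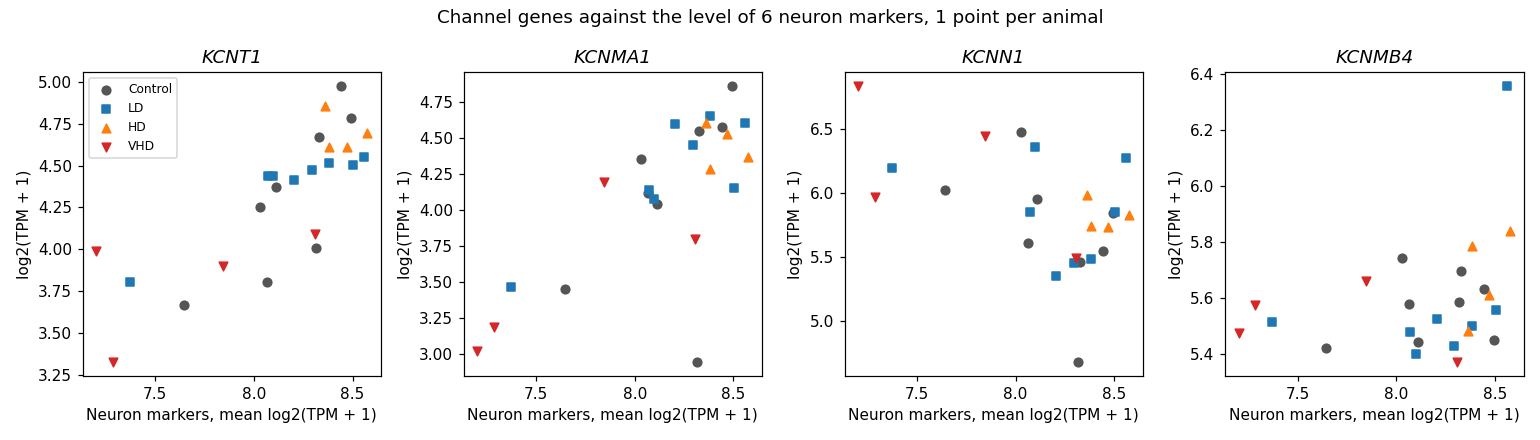
log2(TPM + 1) of KCNT1, KCNMA1, KCNN1 and KCNMB4 against the mean log2(TPM + 1) of 6 neuron markers, 1 point per animal, with symbols for control, LD, HD and VHD. KCNT1 and KCNMA1 rise with the markers (r = 0.80 and 0.73), KCNN1 falls (r = -0.51), and KCNMB4 is nearly level apart from LD replicate 4.

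The genes whose profile over the 24 animals was most like that of each channel gene, by Pearson r of log2(TPM + 1) among all genes tested, were different for each of the 8. They were OPA1, ZFAND5 and FAT3 for KCNN3 (r of 0.97 each) and CELF2, FRMPD4 and KCTD16 for KCNMA1 (r of 0.97 each). KCNT1 was nearest to ANKRD34A, LAMB1 and CACNB2, the last a calcium channel beta subunit (0.91, 0.90 and 0.90). KCNN1 was nearest to ST6GALNAC6, JPH3, a junctophilin that joins the plasma membrane to calcium stores, and MAP3K10 (0.93, 0.93 and 0.92). For KCNN2 the nearest were CNTN3, FMR1, which encodes an RNA-binding protein that also binds Slack and BK channels, and LYPLAL1 (0.84, 0.84 and 0.83). KCNT2 was nearest to PVRL3, TM6SF1 and the potassium channel gene KCNJ3 (0.92, 0.91 and 0.90), and KCNMB2 to SATB1, KLF6 and DPY19L1 (0.90, 0.88 and 0.88). KCNMB4 had the loosest company, namely NR4A2, TMEM155 and HSF2BP (0.84, 0.83 and 0.81). These r values are the highest of many and carry no test.

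Genes that belong to the same families or act on these channels were described from lists of their own. Of 8 other family genes, only KCNMB1, the smooth muscle BK beta subunit, and LRRC55, a BK gamma subunit, had a mean of at least 1 TPM. KCNU1, the pH-sensitive relative of BK, was at or below 0.029 TPM in every animal. Neither tested gene passed in any of the comparisons between arms or in VHD against HD. LRRC55 ran from 3.55 to 19.5 TPM over all animals, and its log2 fold change was -0.25 in HD* against controls (SE 0.31).

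In the 3 comparisons of arms, 0 of the 35 tested genes of the other partner lists passed by limma's adjusted p, and 0 of 35 had an unadjusted p under 0.05. Of all genes, 0% passed in each comparison. The share with such an unadjusted p was 5.68% in HD* against controls, 2.84% in LD* against controls and 1.08% in HD* against LD*. The lists were calmodulin, CK2 and PP2A (8 genes, part of the SK channel complex), scaffolds and regulators (7), calcium entry and release (12) and sodium entry (8). The genes with the smallest p in HD* against controls were the CK2 subunit CSNK2A2 (-0.20, SE 0.11), FMR1 (-0.24, SE 0.13), the T-type calcium channel CACNA1G (-0.49, SE 0.33) and the sodium channel SCN1A (-0.40, SE 0.27). The most abundant of each list by mean over the 24 animals were CALM3, a calmodulin gene (2737 ± 503 TPM, SD), the junctophilin JPH4 (330.2 ± 71.0 TPM), the calcium release channel ITPR1 (78.6 ± 33.9 TPM) and the sodium channel beta subunit SCN4B (289 ± 187 TPM). Their log2 fold changes in HD* against controls were 0.06 (SE 0.15), 0.21 (SE 0.22), 0.09 (SE 0.39) and 0.22 (SE 0.47).

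In VHD against HD animals these lists did hold genes past the threshold, and most were lower. Over all genes 14.6% passed, 11.4% passed as lower and 65.2% were lower whether or not they passed. Of the 8 sodium entry genes 5 fell, all 8 being lower, with a median log2 fold change of -1.10 against -0.17 over all genes. The beta subunit gene SCN4B fell by 1.65 (SE 0.40, limma adjusted p = 0.0209), and SCN1A stood at -0.63 (SE 0.42) without passing. Of the 12 calcium entry and release genes 5 fell and 1, the calcium release channel RYR1, rose, with ITPR1 falling by 0.95 (SE 0.22, limma adjusted p = 0.0179) and CACNA1G at -0.04 (SE 0.32). In the calmodulin, CK2 and PP2A list 3 of 8 fell, among them CALM3 (-0.56, SE 0.15), and CSNK2A2 did not pass (-0.42, SE 0.16, limma adjusted p = 0.0999). Of the 7 scaffolds and regulators, ACTN2, the actin-binding protein alpha-actinin that also binds SK channels, fell by 1.52 (SE 0.20, limma adjusted p = 0.0036), while FMR1 (-0.22, SE 0.21) and JPH4 (-0.16, SE 0.20) did not pass. The neuron marker levels given above moved with these lists as well.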

How the data were processed

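RNA from the NAcc core of 24 animals was sequenced as polyA-selected libraries. Per the labels, the authors aligned reads to the MacaM assembly with STAR 2.5.2b, keeping uniquely mapped reads, counted them with HTSeq 0.6.1p1 and used DESeq2 for their tests. The values the authors deposited are TPM (columns sum to between 999998 and 1000000), although the table is named as normalized counts, so depth is unknown and a count model could not be fitted. The derivation of the TPM and the gene lengths behind them are not given in the sources used here. The public record and the paper describe strandedness and read pairing differently, so reads from overlapping antisense genes may not be separated.

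Groups, cohorts and intake came from the sample labels, and replicate numbers are in record order. Nothing ties animals into pairs. The 13637 genes averaging 1 TPM or more were fitted on log2(TPM + 1) with limma 3.58.1 in R 4.3.3, which replaces the authors' count model. The 3 arms shared 1 model of 24 animals, and VHD and HD were compared in the 8 HD* animals. Fold changes on this scale understate changes of weakly expressed genes. Exact permutation tests, correlations and Dixon's test were run with scipy 1.17.1, pandas 2.3.3 and numpy 2.4.6 under Python 3.11.15, and plots drawn with matplotlib 3.10.9. Genes of similar level were those within 0.5 log2 units of mean expression. The model was tested only on simulated data with independent genes and equal spread in the groups compared. The measured data need not meet either condition.

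The 8 genes, the partner lists and the marker lists were chosen with earlier results of these data known. All 8 were described, and from each partner list the gene with the smallest p in HD* against controls and the most abundant gene, plus for each channel gene the 3 genes with the highest r. Others named were chosen after their values were seen, namely KCNMB1, KCNU1, RYR1, ACTN2, GFAP and MBP. All 8 symbols matched a RefSeq annotation of another assembly, used for names only, and no sequence is given. Alternatives were pseudocounts of 0.1 and 8, no filter and a filter of 10 TPM, TMM rescaling (trimmed means of M-values, with 30% of M and 5% of A trimmed), cohort, arm or neuron markers as covariates, cohorts 5 and 7a alone, and each animal left out in turn. PECAM1 of the endothelial list was not used here.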

Additional observations from a re-analysis of the deposited data

Results flagged for a closer look

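Of 60 groups of 4 or 8 animals examined with Dixon's test (the 8 genes and the 4 ratios in controls, LD*, HD*, HD and VHD), 6 held an animal that stood apart, where chance gives about 1 in 20 groups. LD replicate 4 was highest for KCNMB4 at 81.1 TPM, the other LD* animals lying between 41.2 and 46.1 TPM, and highest for KCNMB2 at 11.0 TPM, the others lying between 2.44 and 6.09 TPM. The same animal had the highest sum of cortical excitatory neuron markers (872 TPM). Control replicate 2 was highest for KCNMB2 at 9.03 TPM (others 2.67 to 5.10 TPM) and had the highest such marker sum among the controls, 414 TPM. LD replicate 5 was lowest for KCNT1 at 13.0 TPM (others 20.3 to 22.5 TPM) and had the lowest sum of neuron markers in LD*, 1501 TPM. The part of these marker levels in the values was not tested. VHD replicate 2 was highest for KCNT2 at 3.00 TPM (other HD* animals 0.29 to 0.88 TPM) and, with it, for the ratio of KCNT2 to KCNT1, at 0.19 (others 0.02 to 0.06).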

How the results depend on the processing

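No paired analysis was possible because the labels give no replicate numbers that groups share, and numbers here only name animals. The counts of genes passing stayed at 0 of 8 under every alternative run for the comparisons between arms, the intake slope, cohort and the HD* difference by cohort, the smallest adjusted p being 0.134. In VHD against HD the count of 3 became 1 with no filter on low values (KCNT1), 0 with neuron markers as a covariate and 0 in the model of 4 categories, and ranged from 0 to 5 with 1 animal left out. Genes called over the whole table in VHD against HD fell from 1997 to 269 with neuron markers as a covariate, to 0 in the model of 4 categories and to 476 without VHD replicate 3, and rose to 4651 without VHD replicate 2. With a filter of 10 TPM, KCNN2, KCNN3, KCNMB2 and KCNT2 have no value. For single genes, 808 of 884 alternative values kept direction and side of the threshold, most of them for differences that had not passed. Direction turned in 49, none of them for a difference that had passed, and the cause was not tested. The threshold was lost in 25, all of them for KCNT1, KCNMA1 or KCNN3 in VHD against HD, the only differences that had passed. It was gained in 2.

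Under TMM, KCNMA1 and KCNT1 in HD* against controls became 0.0033 and 0.062, KCNMB4 in VHD against HD 0.043, and KCNMB2 in the HD* difference by cohort 0.0011. With neuron markers as a covariate, KCNMA1 and KCNT1 in HD* against controls became 0.011 and 0.047, and KCNN1 and KCNN2 in VHD against HD -0.23 and 0.17. In LD* against controls, KCNN3 was -0.0055 with a pseudocount of 8 and KCNN2 0.055 with cohort. The log2 ratio of KCNN2 to KCNN3 in HD* against controls was 0.15 within cohort 7a, that of KCNT2 to KCNT1 0.45 within cohort 5, and that of KCNMB4 to KCNMB2 in HD* against LD* was 0.39 with a pseudocount of 1 (exact permutation p = 0.0479, unadjusted).

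With 1 animal left out, values in HD* against controls ranged from -0.28 to 0.027 for KCNMA1, -0.0041 to 0.063 for KCNMB4 and -0.15 to 0.076 for KCNT1. In LD* against controls they ranged from -0.13 to 0.015 for KCNN2, -0.11 to 0.10 for KCNN3, -0.012 to 0.27 for KCNMA1, -0.14 to 0.18 for KCNMB2, -0.084 to 0.053 for KCNMB4, -0.017 to 0.17 for KCNT1 and -0.029 to 0.16 for KCNT2. In HD* against LD* they ranged from -0.029 to 0.11 for KCNMB4 and -0.22 to 6.4e-05 for KCNT1, in VHD against HD from -0.091 to 0.22 for KCNMB2 and -0.19 to 0.36 for KCNT2, and for the intake slope from -0.0035 to 0.050 for KCNMB4. Ratios ranged from -0.21 to 0.039 (KCNN2 to KCNN3, LD* against controls), -0.18 to 0.042 (the same, HD* against LD*), 0.33 to 0.60 (KCNMB4 to KCNMB2, HD* against controls), -0.15 to 0.083 (LD* against controls), 0.39 to 0.61 (HD* against LD*), -0.28 to 0.039 (KCNMB4 to KCNMA1, LD* against controls) and -0.17 to 0.17 (KCNT2 to KCNT1, LD* against controls).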
